A study of Mus musculus with 12 samples.

Results

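S100 proteins are small calcium-binding proteins, and 9 of their genes, S100a1, S100a3, S100a4, S100a5, S100a6, S100a10, S100a11, S100a13 and S100a16, were described among the 33219 features of the count table. They were chosen by symbol, by matching the Ensembl identifiers of the table to GENCODE M21, and all 9 were found. The choice was made with the genotype differences known, because S100a4 had been seen to be much lower in A159V tumor cells, so the genotype differences of these genes are given as a description without p-values. A filter on low counts left 14340 genes for testing, and 8 of the 9 members passed it. S100a5 did not pass and had between 0 and 10 counts per sample.

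RNA was sequenced from tumor cells of MC38, a mouse colon adenocarcinoma line, in 4 groups with n = 3 mice in each. The cells carried either unmodified RAC1 (WT) or the homozygous A159V substitution placed in the endogenous gene of this small GTPase by CRISPR-Cas9 knock-in, and the mutant data came from clone 9 of 3 clones unless otherwise specified, so a genotype difference may be that of 1 clone. Cells of either genotype were injected under the skin of C57BL/6 mice aged 6 to 8 weeks, and the mice received IgG, the isotype control, or anti-PD1, an antibody against the inhibitory T cell receptor PD1, every 3 days from day 3. Tumors were taken on day 13 and tumor cells were separated from other cells with magnetic beads. Groups are named by genotype and antibody, as in WT IgG, and samples by their replicate number.

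S100 proteins carry a pair of EF-hands, the helix-loop-helix motif that binds calcium, and most work as dimers that grip a target protein once calcium is bound. S100A10 is the exception, since it has lost calcium binding and holds annexin A2 permanently. Inside cells the family acts on the cytoskeleton, membrane repair and calcium pumps, and several members that are released signal through the receptor RAGE (Ager). S100A4 binds non-muscle myosin heavy chain (Myh9), is well known for its link to cell motility and metastasis, and is also made by fibroblasts and by some leukocytes.

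All 9 genes lie on mouse chromosome 3 in mm10 coordinates, in 2 groups. S100a1 (90511034 to 90514392, minus strand) and S100a13 (90514435 to 90524581) start head to head with 42 bases between them, and S100a16 (90537254 to 90543151), S100a3 (90560578 to 90602702), S100a4 (90603771 to 90606045), S100a5 (90608523 to 90611780) and S100a6 (90612882 to 90624181) follow on the plus strand. S100a11 (93520488 to 93526287) and S100a10 (93555080 to 93564643) lie further along on the same strand. S100a4 starts 1068 bases after the annotated end of S100a3 and ends 2477 bases before S100a5.

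The promoters of S100a4 and of its upstream neighbor S100a3 are shown because these adjacent genes had different values in A159V cells, and those of S100a6 and S100a11 because they are abundant members with smaller or no differences. Each sequence is the 250 bases before a RefSeq start on GRCm38.p6, the assembly of mm10, read on the plus strand at chr3:90603520-90603769 (S100a4), chr3:90599964-90600213 (S100a3, the last of its 4 listed starts), chr3:90612644-90612893 (S100a6) and chr3:93520246-93520495 (S100a11). Capitals mark matches on either strand to TATAAA (the TATA box), CCAAT (the CCAAT box), GGGCGG (the GC box), TGANTCA (the AP-1 site) or CACGTG (the E-box), none of which overlapped.
S100a4: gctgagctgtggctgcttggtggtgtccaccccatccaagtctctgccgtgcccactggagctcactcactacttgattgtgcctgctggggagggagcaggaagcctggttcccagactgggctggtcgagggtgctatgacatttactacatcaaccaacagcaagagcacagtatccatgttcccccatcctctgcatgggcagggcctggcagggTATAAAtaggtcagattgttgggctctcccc
S100a3: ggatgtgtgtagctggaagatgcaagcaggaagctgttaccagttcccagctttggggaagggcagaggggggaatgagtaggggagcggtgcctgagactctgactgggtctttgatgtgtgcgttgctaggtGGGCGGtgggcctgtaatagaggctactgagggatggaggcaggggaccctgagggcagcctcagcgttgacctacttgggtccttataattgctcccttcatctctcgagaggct
S100a6: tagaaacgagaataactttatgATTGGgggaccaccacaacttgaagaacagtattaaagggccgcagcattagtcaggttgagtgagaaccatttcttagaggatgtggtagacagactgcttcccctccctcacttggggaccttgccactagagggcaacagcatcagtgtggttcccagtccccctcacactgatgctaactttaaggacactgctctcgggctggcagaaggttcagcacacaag
S100a11: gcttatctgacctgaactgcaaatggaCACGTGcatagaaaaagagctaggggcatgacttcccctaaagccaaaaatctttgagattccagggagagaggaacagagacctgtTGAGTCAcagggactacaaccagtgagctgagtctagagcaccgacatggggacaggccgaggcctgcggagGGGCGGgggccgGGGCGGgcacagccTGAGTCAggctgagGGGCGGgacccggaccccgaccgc

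The S100a4 promoter had a TATAAA whose first base lies 31 bases before the start, and 12.4% of the 32851 mouse promoter windows of this length hold this motif. The S100a3 window shown had 1 GGGCGG (32.7% of windows), while the window of another of its starts, chr3:90588313-90588562, held a TATAAA and a CCAAT, and the S100a6 window 1 CCAAT (33.8%). The S100a11 window had 3 GGGCGG, 2 TGANTCA (6.75% of windows) and 1 CACGTG (6.02%). It also held 11 CG dinucleotides, against 2 in the S100a4 window, 5 in that of S100a3, 3 in that of S100a6 and a median of 6 over all windows. The RefSeq table matched 8 of the 9 members, with S100a10 the one not matched. A match says that these letters occur and not that a factor binds there.

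Levels are given as CPM, counts scaled to a fixed library size and between samples by the trimmed mean of M-values (TMM). Total counts ranged from 14053582 to 21949942 per sample, so the floor of 3 counts lay at 0.137 to 0.213 CPM, which covers counting error only. Rac1, the edited gene, had means of 451 ± 55.5 (WT) and 419.6 ± 65.1 CPM (A159V) under IgG and 423 ± 25.6 and 372 ± 35.4 CPM under anti-PD1 (SD, n = 3), and counts per gene cannot show the base change. One feature of the libraries touches most results below. The 897 tested genes with under 1000 bases of exon, a class that holds 4 of the 8 tested members (S100a1, S100a4, S100a11 and S100a13), stood above their own 12-sample means by a median of 0.67 on the log2 scale in WT IgG replicate 1, by 0.27 in replicate 2 and by 0.09 in replicate 4, and between −0.21 and 0.05 in the other 9 samples. In A159V IgG versus WT IgG the median log2 fold change of these short genes was −0.56, and in WT anti-PD1 versus WT IgG it was −0.44, against 0.02 and 0.01 over all genes tested. In A159V anti-PD1 versus WT anti-PD1 it was 0.06. Fold changes of S100 members are therefore also given from a fit that corrected each sample for its length trend (exon-length trend removed). This alternative was chosen after the data were seen, and the part of gene length in the differences was not tested further. Length here is that of merged exons. S100a6 and S100a10, with 1367 and 1212 merged bases, have longest transcripts of 783 and 685 bases. The fit may therefore correct S100a6 and S100a10 too little, which was not tested.

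S100a4 was the member with the largest genotype difference. Its level was 602, 443 and 307 CPM in WT IgG replicates 1, 2 and 4 and 58.2, 58.5 and 70.2 CPM in A159V IgG replicates 1, 2 and 5. Under anti-PD1 it was 248, 309 and 387 CPM in WT and 40.9, 57.0 and 49.2 CPM in A159V. Every A159V sample was below every WT sample under either antibody, and the lowest WT value was several times the highest A159V value.

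The log2 fold change of S100a4, estimated by edgeR's quasi-likelihood fit, was −2.85 (SE 0.24) in A159V IgG versus WT IgG, which is 7.23-fold lower. It was −2.68 (SE 0.24) in A159V anti-PD1 versus WT anti-PD1, 6.41-fold lower. With the exon-length trend removed the values were −2.37 (SE 0.17) and −2.79 (SE 0.17). WT IgG replicate 1 had the highest S100a4 level of the 12 samples, and without it the IgG value was −2.68. Of the 14340 genes ordered by log2 fold change from the lowest, S100a4 was number 234 under IgG and 312 under anti-PD1. The study itself named S100a4 among its top lower genes in A159V IgG versus WT IgG, by an order that may differ from this one.

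**Figure D1:**
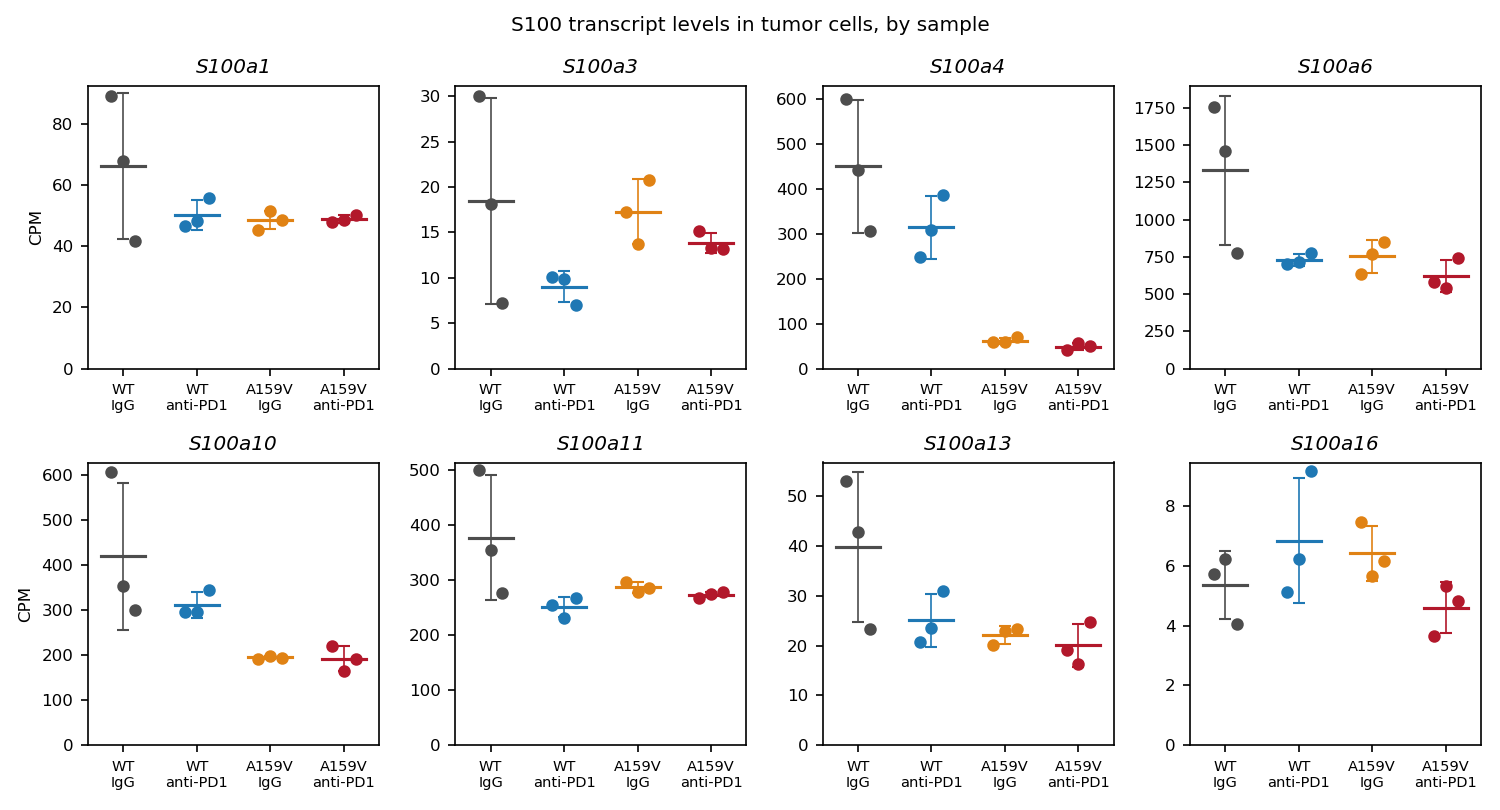
Levels of the 8 tested S100 genes in CPM (vertical axes, from 0, a different scale in each panel) in the 4 groups, with 1 point per sample, a horizontal line at the group mean and an error bar of 1 SD (n = 3). S100a4 and S100a10 are lower in all A159V samples than in all WT samples, and in 7 of the 8 panels the highest point is WT IgG replicate 1.

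Ratios of raw counts within a sample do not depend on the scaling between samples, and they separated the genotypes in the same way. They are not corrected for exon length, and S100a4 has 584 exon bases, S100a6 1367 and S100a3 5660. There were between 0.304 and 0.395 S100a4 counts per count of S100a6 in WT IgG and 0.355, 0.433 and 0.5001 in WT anti-PD1, against 0.0760 to 0.0917 in A159V IgG and 0.0661 to 0.105 in A159V anti-PD1. Per count of S100a3, the gene next to it, S100a4 had 20.1 to 42.2 counts in WT IgG, 24.6 to 55.1 in WT anti-PD1, 3.36 to 4.28 in A159V IgG and 2.70 to 4.27 in A159V anti-PD1. The genotypes did not overlap in either ratio. Of the summed CPM of the 9 members, S100a4 made up 15.7% to 20.6% in the 6 WT samples and 3.43% to 5.09% in the 6 A159V samples.

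One limit of the S100a4 counts is annotation. GENCODE M21 has a read-through gene, Gm42674, that joins S100a3 and S100a4 on the same strand and covers 302 of the 584 exon bases of S100a4, and 47.4% of the 50-base words of the S100a4 transcripts also occur in it. Gm42674 was not a row of the table. The table keeps rows with 0 counts in all samples, such as S100z, so Gm42674 may not have been in the annotation that was counted. That annotation and the counting mode were not given in the sources used here. Only if Gm42674 was in it could reads that belong to both be missing from S100a4, in all samples.

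S100a4 was next set against its neighbors on chromosome 3, to see whether genes around it were also lower. Within 1 Mb on either side 32 other genes were tested, all but S100a6 and S100a8 on the S100a3 side. Their median log2 fold change was 0.05 in A159V IgG versus WT IgG, with a range from −1.41 (Slc27a3, a fatty acid transport protein) to 0.99 (Gatad2b, a subunit of the NuRD repressor). S100a4 lay 2.90 log2 units below that median. These neighbor values are not corrected for exon length, and with the exon-length trend removed S100a4 minus the median was −2.32 under IgG. Under anti-PD1 the median was −0.06 and the range −1.51 (S100a14) to 0.62 (S100a3), with S100a4 2.62 below it in log2 units.

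No neighbor within 1 Mb had a difference near that of S100a4 in either comparison. Within 2 Mb, with 77 other genes tested, the lowest was Pbxip1, a nuclear receptor coregulator, at −2.75 under IgG and −3.46 under anti-PD1, which is close to S100a4 in the first comparison and below it in the second. The nearest tested genes that are not S100 genes, Chtop, Snapin and Ilf2, had log2 fold changes of −0.21 (SE 0.12), −0.20 (SE 0.14) and 0.09 (SE 0.12) under IgG. Under anti-PD1 they had 0.05 (SE 0.12), −0.41 (SE 0.14) and 0.42 (SE 0.13). Of these 6 values, that of Ilf2, a double-stranded RNA-binding protein, under anti-PD1 passed the test. Over chromosome 3 as a whole, 684 other genes had medians of 0.05 and 0.09.

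Genes that passed the test around S100a4 were mixed in direction. Differentially expressed genes (DEGs) passed 0.05 on the Benjamini-Hochberg adjusted p and 0.3 on the size of the log2 fold change. Under IgG, 4 neighbors were higher in A159V (Ubap2l, Slc39a1, Gatad2b, Ints3) and 6 lower (4632404H12Rik, Rab13, Jtb, Slc27a3, S100a13, S100a6), where 28.0% of all genes tested were DEGs. Under anti-PD1, 2 were higher (Tpm3, Ilf2) and 2 lower (Il6ra, S100a14), where 21.4% of all genes were DEGs.

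**Figure D2:**
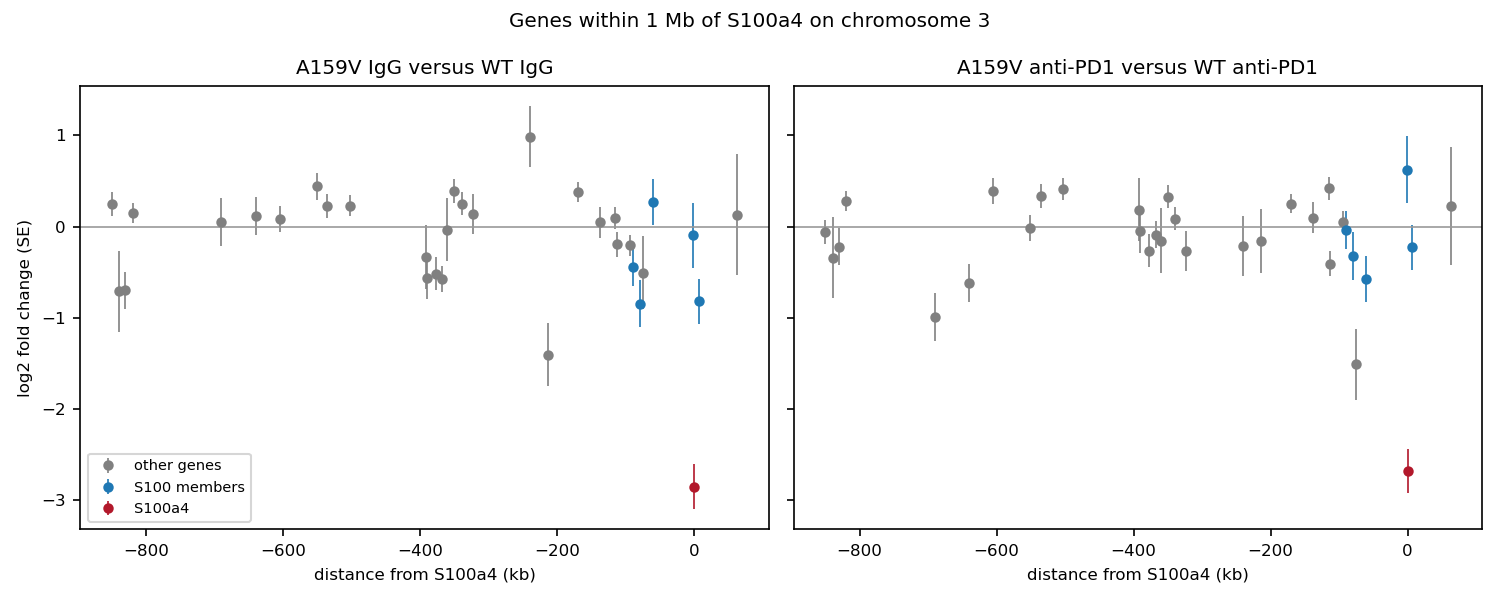
Log2 fold change with its SE (vertical axis) of the genes within 1 Mb of S100a4 against their distance from it in kb (horizontal axis), under IgG and under anti-PD1. S100a4, in red, is at −2.85 and −2.68, and the 32 other genes, the S100 members in blue among them, lie between −1.51 and 0.99. Values are not corrected for exon length.

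S100a10, the light chain of the annexin A2 complex that helps to assemble plasminogen activation at the cell surface, was the other member whose A159V samples all lay below the WT samples under both antibodies. It had 605, 352 and 299 CPM in WT IgG and 191, 198 and 193 CPM in A159V IgG. Under anti-PD1 it had 294, 295 and 343 CPM in WT and 220.1, 164 and 191 CPM in A159V. The 2 genotypes did not overlap under either antibody, and the 3 A159V IgG samples lay close together.

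The log2 fold change of S100a10 was −1.11 (SE 0.22) under IgG and −0.70 (SE 0.22) under anti-PD1. With the exon-length trend removed these became −0.82 (SE 0.15) and −0.83 (SE 0.15), and without WT IgG replicate 1 the IgG value was −0.83. S100a11, which lies next to it, gave a within-sample comparison. There were 0.994 to 1.28 S100a10 counts per S100a11 count in the WT samples and 0.597 to 0.823 in the A159V samples, with no overlap.

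Annexin A2 (Anxa2), the partner of S100a10, did not pass the test between genotypes. Under IgG its mean was 1032 CPM in WT and 941 CPM in A159V cells (log2 fold change −0.13, SE 0.13, adjusted p = 0.458 from edgeR). Under anti-PD1 the means were 871 and 880.0 CPM (0.01, SE 0.13, adjusted p = 0.946). The S100a10 counts per Anxa2 count were 0.330 to 0.515 in WT IgG and 0.341 to 0.386 in WT anti-PD1, and 0.192 to 0.223 and 0.188 to 0.242 in the A159V groups. Ahnak, a giant scaffold protein that binds the S100A10 and annexin A2 complex, had means of 1166 and 787 CPM in WT IgG and A159V IgG (log2 fold change −0.57, SE 0.40, adjusted p = 0.304). Under anti-PD1 it fell from 2877 to 913 CPM (−1.66, SE 0.41, adjusted p = 0.0125).

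S100a6 (calcyclin), the member with the most counts, made up 41.3% to 56.9% of the summed CPM of the family. It had 1754, 1457 and 777 CPM in WT IgG and 634, 770.5 and 852 CPM in A159V IgG. Under anti-PD1 it had 699, 714 and 773 CPM in WT and 577, 541 and 745 CPM in A159V. WT IgG replicates 1 and 2 stood apart from the other 10 samples, replicate 4 lay among them, and the genotypes overlapped under both antibodies.

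The log2 fold change of S100a6 was −0.82 (SE 0.24) under IgG, −0.66 without WT IgG replicate 1 and −0.57 (SE 0.19) with the exon-length trend removed. Under anti-PD1 it was −0.23 (SE 0.24), and −0.37 (SE 0.19) with the trend removed. Its partner Cacybp, the calcyclin-binding protein of a ubiquitin ligase complex, had means of 219 and 185 CPM under IgG (log2 fold change −0.24, SE 0.31, adjusted p = 0.588) and 167 and 227 CPM under anti-PD1 (0.44, SE 0.31, adjusted p = 0.337).

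S100a11, which works with annexin A1 and annexin A2 in membrane repair, differed little between genotypes. It had 499, 354 and 276 CPM in WT IgG and 297, 277 and 284 CPM in A159V IgG. Under anti-PD1 it had 253, 231 and 267 CPM in WT and 267, 275 and 277 CPM in A159V. The groups overlapped under IgG, and under anti-PD1 the A159V samples were just above the WT samples.

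The log2 fold changes of S100a11 were −0.40 (SE 0.18) and 0.13 (SE 0.18), and with the exon-length trend removed 0.13 (SE 0.10) and 0.03 (SE 0.10). Of its 50-base words, 41.1% also occur in the pseudogenes Gm12854, Gm7665 and Gm29240, so its level is uncertain. Its partner Anxa1, a calcium-dependent membrane-binding protein with anti-inflammatory actions, fell from 426 to 210 CPM under IgG (log2 fold change −1.02, SE 0.16, adjusted p = 0.000778) and from 466 to 228 CPM under anti-PD1 (−1.03, SE 0.16, adjusted p = 0.000756). Anxa1 is among the genes the study drew as lower in these samples, so it is not independent evidence of a direction.

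**Figure D3:**
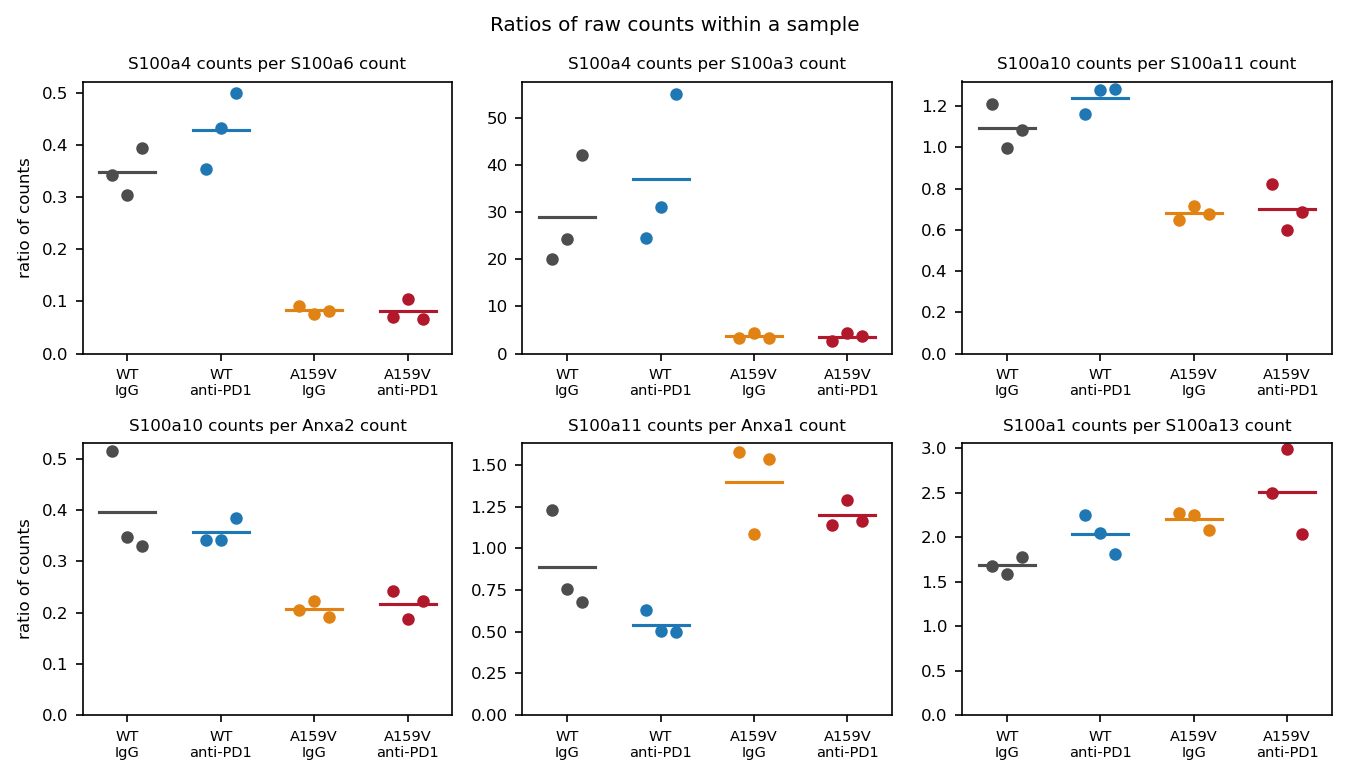
Ratios of raw counts of 2 genes in the same sample (vertical axes, from 0), with 1 point per sample and a line at the mean of each group. In the ratios of S100a4 to S100a6 and S100a3, and of S100a10 to S100a11 and Anxa2, all 6 A159V samples lie below all 6 WT samples. S100a11 to Anxa1 overlaps between genotypes under IgG and is higher in all A159V samples under anti-PD1. S100a1 to S100a13 is higher in all A159V samples under IgG and overlaps under anti-PD1.

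S100a13, which helps to release FGF1 from cells by a route outside the secretory pathway, and S100a1, a regulator of the calcium pump of muscle, share one start region. S100a13 had 53.1, 42.9 and 23.3 CPM in WT IgG and 20.0, 22.9 and 23.4 CPM in A159V IgG. Under anti-PD1 it had 20.7, 23.5 and 31.0 CPM in WT and 19.2, 16.3 and 24.8 CPM in A159V. WT IgG replicates 1 and 2 were above the other 10 samples and replicate 4 was not.

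S100a1 had 89.2, 67.9 and 41.6 CPM in WT IgG and 45.5, 51.5 and 48.7 CPM in A159V IgG. Under anti-PD1 it had 46.7, 48.2 and 56.0 CPM in WT and 47.9, 48.6 and 50.4 CPM in A159V. It too was high only in WT IgG replicates 1 and 2, and the genotypes overlapped under both antibodies.

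The log2 fold change of S100a13 was −0.85 (SE 0.26) under IgG and −0.32 (SE 0.26) under anti-PD1, and that of S100a1 was −0.45 (SE 0.21) and −0.04. With the exon-length trend removed the IgG values were −0.40 (SE 0.20) for S100a13 and 0.00 (SE 0.13) for S100a1. The anti-PD1 values then were −0.44 (SE 0.20) and −0.15 (SE 0.13). The S100a1 counts per S100a13 count ran from 1.58 to 1.78 in WT IgG, 1.81 to 2.26 in WT anti-PD1, 2.08 to 2.27 in A159V IgG and 2.04 to 2.99 in A159V anti-PD1. Fgf1 was not among the genes tested.

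The last 3 members had the lowest mean CPM in each group, and of them only S100a5 was near the floor of 3 counts. S100a3, a cysteine-rich protein known from hair cuticle, had 30.0, 18.2 and 7.28 CPM in WT IgG and 17.3, 13.7 and 20.8 CPM in A159V IgG. With anti-PD1 the levels were 10.1, 9.92 and 7.02 CPM in WT and 15.1, 13.3 and 13.1 CPM in A159V. The 3 WT IgG samples spanned nearly the whole range of the series, and under anti-PD1 all A159V samples were above all WT samples.

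The log2 fold change of S100a3 was −0.10 (SE 0.36) under IgG, 0.36 without WT IgG replicate 1, and 0.62 (SE 0.37) under anti-PD1. With the exon-length trend removed it was −0.26 (SE 0.39) under IgG and 0.58 (SE 0.40) under anti-PD1. S100a16, a widely expressed member, had 5.74, 6.24 and 4.07 CPM under IgG in WT, against 7.46, 5.67 and 6.16 CPM in A159V. With anti-PD1 the levels were 5.12, 6.24 and 9.19 CPM in WT and 3.65, 5.32 and 4.84 CPM in A159V, and the genotypes overlapped in both cases. Its log2 fold changes were 0.27 (SE 0.25) and −0.57 (SE 0.25), and with the exon-length trend removed 0.43 (SE 0.24) and −0.72 (SE 0.24). S100a5, known from olfactory neurons, had at most 0.546 CPM in any sample.

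Of the 8 members tested, 4 were DEGs in A159V IgG versus WT IgG, all lower (S100a4, S100a6, S100a10 and S100a13), where 28.0% of all genes were DEGs in either direction and 12.4% were lower DEGs. In A159V anti-PD1 versus WT anti-PD1, 2 were DEGs (S100a4 and S100a10, both lower), where 21.4% of all genes were DEGs and 10.2% were lower ones. The groups did not overlap for 2 of 8 members under IgG and 4 of 8 under anti-PD1, against 35.8% and 56.1% of all genes. With the exon-length trend removed 3 were DEGs under IgG (S100a4, S100a6 and S100a10), against 28.3% of all genes, and 3 under anti-PD1 (S100a4, S100a10 and S100a16), against 23.2%. Without WT IgG replicate 1 the IgG count was 2 (S100a4 and S100a10), against 22.7% of all genes, and without replicate 4 it was 6, against 31.6%. Since the members were chosen on these contrasts, nothing is read from the counts. The median log2 fold change of the 8 members was −0.63 under IgG and −0.28 under anti-PD1, against 0.02 and 0.06 over all genes, and −0.33 and −0.40 with the exon-length trend removed.

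**Figure D4:**
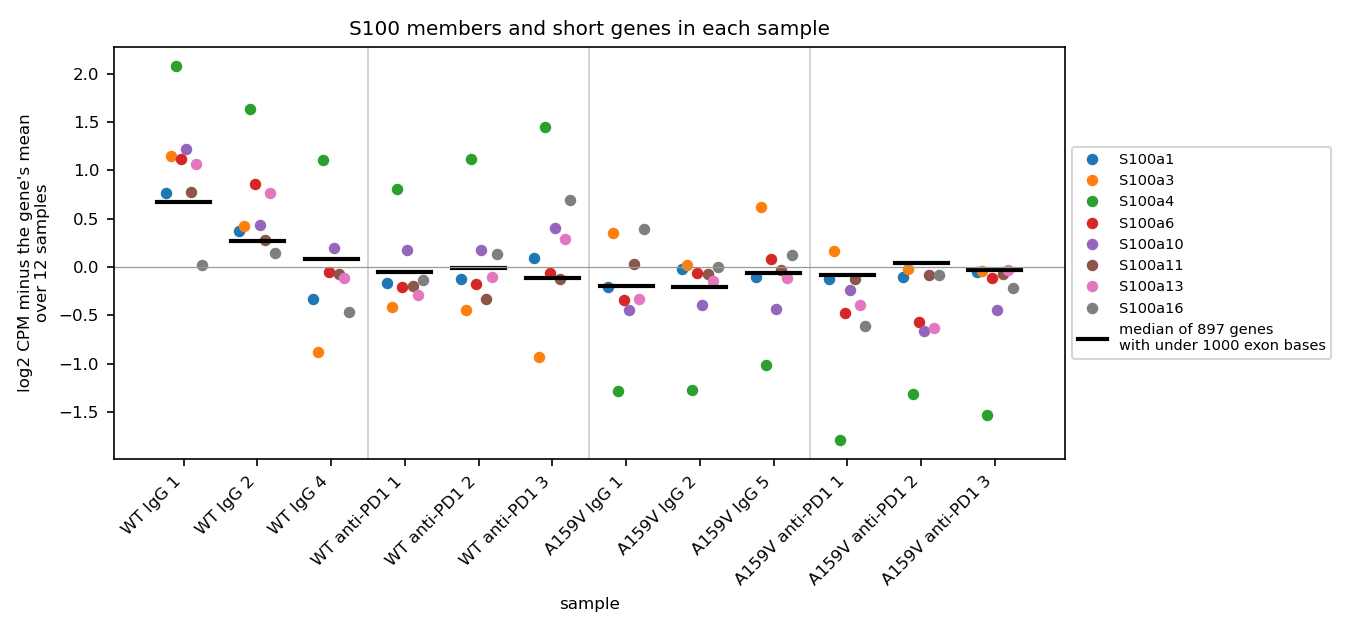
Log2 CPM of each tested S100 gene minus its own mean over the 12 samples (vertical axis) in every sample (horizontal axis), with a black bar at the median of 897 genes that have under 1000 exon bases. In WT IgG replicate 1 the bar is at 0.67 and 7 of the 8 members lie above it, while S100a4 runs from 0.80 to 2.08 in the 6 WT samples and from −1.79 to −1.01 in the 6 A159V samples.

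Other genes of the S100 family were near the floor of detection. S100a14 had 7 to 35 counts per sample and log2 fold changes of −0.51 under IgG and −1.51 (SE 0.39) under anti-PD1, the latter a DEG. S100a8, the calprotectin subunit abundant in neutrophils, had 1 to 15 counts. S100a2, S100a7a, S100a9, S100b, S100g, S100z and 9130204L05Rik were not among the genes tested.

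Levels can be compared between genes only per length, here as mean CPM per kilobase of merged exons. In WT IgG the order was S100a6 (972 ± 366, SD, n = 3), S100a4 (771 ± 253), S100a11 (737 ± 222), S100a10 (345 ± 135), S100a1 (95.4 ± 34.3) and S100a13 (55.6 ± 21.1), and the first 3 did not differ beyond their spread. In A159V IgG it was S100a11 (560 ± 19.1), S100a6 (550 ± 80.6), S100a10 (160 ± 2.93), S100a4 (107 ± 11.7), S100a1 (69.9 ± 4.33) and S100a13 (30.9 ± 2.51). S100a4 thus stood among the top 3 in both WT groups and at rank 4 in both A159V groups, below S100a10. S100a11 and S100a6 did not differ beyond their spread in A159V IgG, and with the length of the longest transcript in place of merged exons S100a6 came first in all 4 groups. S100a16, S100a3 and S100a5 were last in each group, at 4.24 or less.

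The question for anti-PD1 is whether treatment changed the S100 genes in tumor cells, and tests are given for it. They are not independent of the choice of members, because the same WT IgG samples enter the genotype contrast and the interaction is a difference of the genotype contrasts. In WT anti-PD1 versus WT IgG, 0 of 8 members passed edgeR's test, where 0.628% of all genes did. At an unadjusted p under 0.05 there were 5 of 8, against 27.5% of all genes. The adjusted p was 0.0777 for S100a6 (log2 fold change −0.87, SE 0.24), 0.0854 for S100a11 (−0.59, SE 0.18), 0.111 for S100a3 (−1.03, SE 0.37), 0.131 for S100a13 (−0.66, SE 0.26) and 0.166 for S100a4 (−0.52, SE 0.23). In S100a6 and S100a11 all 3 anti-PD1 samples were below all 3 IgG samples, as in 15.8% of all genes, and in the other 6 members the groups overlapped.

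This comparison rested on single libraries. Without WT IgG replicate 4, 7 of 8 members passed the test as lower under anti-PD1, where 24.1% of all genes passed. Without replicate 1, 0 of 8 passed, as did 0.00697% of all genes. DESeq2 called 3 of 8 (S100a3, S100a6, S100a11), where it called 10.3% of all genes. With the exon-length trend removed 0 of 8 passed, where 1.27% of all genes did, and the log2 fold changes of S100a4, S100a10 and S100a11 were −0.02 (SE 0.16, adjusted p = 0.948), −0.06 (SE 0.15, adjusted p = 0.83) and −0.08 (SE 0.10, adjusted p = 0.656).

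In A159V anti-PD1 versus A159V IgG, 0 of 8 members passed edgeR's test, and none had an unadjusted p under 0.05, against 3.63% of all genes. All adjusted p were 1, and 0% of all genes passed. The log2 fold changes ran from −0.48 (S100a16, SE 0.25) to 0.01 (S100a1). DESeq2 also called 0 of 8, where it called 0.0139% of all genes. For S100a4, S100a11 and S100a16 the 3 anti-PD1 samples were below the 3 IgG samples, as in 6.50% of all genes. The levels of S100a1 and S100a11 hardly varied over the 6 A159V samples, at 45.5 to 51.5 and 267 to 297 CPM.

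The effect of anti-PD1 was then compared between the genotypes by the interaction of genotype and treatment. By edgeR, 0 of 8 members passed, where 0.00697% of all genes did, and S100a16 was the 1 member with an unadjusted p under 0.05 (interaction −0.84 on the log2 scale, adjusted p = 0.262), against 17.6% of all genes. DESeq2 called 0 of 8, where it called 2.06% of all genes. For S100a4 the interaction was 0.17 (SE 0.32, adjusted p = 0.787) and for S100a10 0.41 (adjusted p = 0.463). Without WT IgG replicate 4, S100a6 (0.86, adjusted p = 0.0437) and S100a11 (0.70, adjusted p = 0.0476) passed, where 8.44% of all genes did. With the exon-length trend removed 0 of 8 passed, as did 0.00703% of all genes, and the interaction of S100a4 was −0.43 (adjusted p = 0.353).

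**Figure D5:**
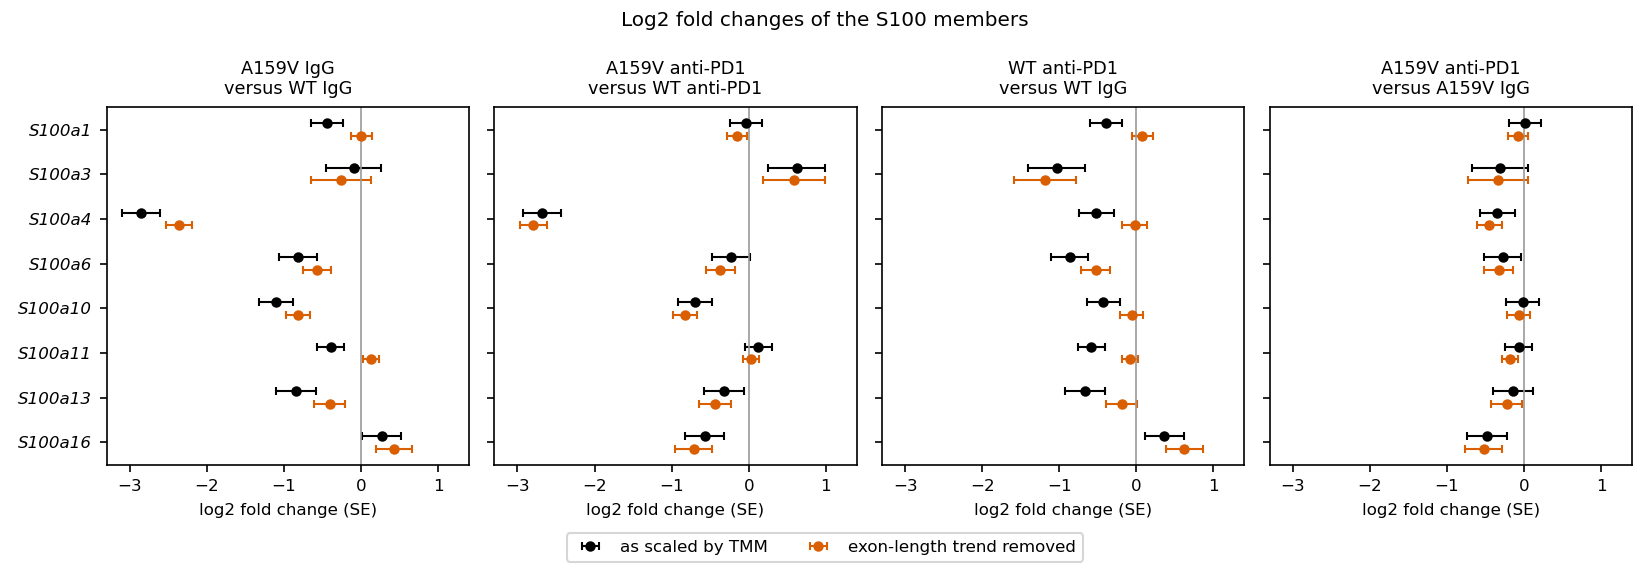
Log2 fold change with its SE (horizontal axes) of the 8 tested S100 genes in 4 comparisons, scaled by TMM (black) and with each sample's exon-length trend removed (orange). S100a4 and S100a10 stay below 0 in both genotype comparisons on either scale, while in WT anti-PD1 versus WT IgG the values of S100a1, S100a4, S100a10 and S100a11 move to between −0.08 and 0.08 once the trend is removed.

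Genes that work with the S100 proteins were taken from 4 lists of binding partners, annexins, receptors and other EF-hand proteins, of which 84 were tested. The fold changes and p-values printed for list genes are not corrected for exon length. The lists were chosen with earlier results of these data known, so genotype p-values of list genes, here and above, are a description only. In A159V IgG versus WT IgG all tested genes with over 4000 exon bases had a median log2 fold change of 0.14. Those with under 1000 had −0.56. Under IgG, 29 of 84 (34.5%) were DEGs between genotypes, 19 higher and 10 lower in A159V, against 28.0% of all genes. Their median log2 fold change was −0.01, against 0.02. Under anti-PD1, 28 of 84 (33.3%) were DEGs, 13 higher and 15 lower, against 21.4% of all genes, with a median of 0.08 against 0.06.

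Among the partners of S100a4 and S100a10, Plat, the tissue plasminogen activator, fell from 42.6 to 23.1 CPM under IgG (log2 fold change −0.88, adjusted p = 0.00546) and from 47.4 to 16.2 CPM under anti-PD1 (−1.55, adjusted p = 0.000243). Plaur, the urokinase receptor, which was named after its values were seen, rose from 133 to 222 CPM (0.74, adjusted p = 0.013) and from 129 to 200 CPM (0.62, adjusted p = 0.0328). Myh9, the myosin heavy chain bound by S100A4, had means of 912 and 973 CPM under IgG (0.09, SE 0.26, adjusted p = 0.814) and 1001 and 876 CPM under anti-PD1 (−0.19, SE 0.26, adjusted p = 0.638). S100a4 counts per Myh9 count were 0.227 to 1.05 in WT IgG, 0.241 to 0.375 in WT anti-PD1, 0.0578 to 0.0740 in A159V IgG and 0.0393 to 0.0732 in A159V anti-PD1. These ratios are not corrected for exon length, and in WT IgG replicates 1, 2 and 4 they were 1.05, 0.547 and 0.227.

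Among the other partners under IgG, Atp2a2, the calcium pump SERCA2 that S100A1 regulates, rose by 0.89 (adjusted p = 0.00123) and Mtor by 0.93 (adjusted p = 0.00392) on the log2 scale. Ctsb, cathepsin B, rose by 0.82 (adjusted p = 0.000981) under IgG and 0.39 (adjusted p = 0.0475) under anti-PD1. Under anti-PD1 Lmna, lamin A/C, fell by 0.61 (adjusted p = 0.00562) and Stip1, a co-chaperone, rose by 0.55 (adjusted p = 0.00834).

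The receptors did not share a direction. Ager, which encodes RAGE, fell from 4.22 to 1.38 CPM under IgG (log2 fold change −1.62, SE 0.33, adjusted p = 0.00381), and under anti-PD1 it had 1.95 and 2.03 CPM (0.06, SE 0.33, adjusted p = 0.915). The interaction of these effects was 1.68 (adjusted p = 0.176), so they were not shown to differ. Ager too was drawn by the study as lower in these samples. Bsg, which encodes basigin, had 746 and 685 CPM under IgG (−0.12, adjusted p = 0.575) and 673 and 690 CPM under anti-PD1 (0.04, adjusted p = 0.89), and Tlr4 did not pass either test (0.09, adjusted p = 0.861, and −0.74, adjusted p = 0.112). Mcam, an adhesion molecule, rose by 0.74 (adjusted p = 0.00729) and 0.63 (adjusted p = 0.02). Il10ra had 1.00 to 1.76 CPM in WT anti-PD1 and 0 counts in all 3 A159V anti-PD1 samples (adjusted p = 0.00102). It passed the filter on low counts only through other samples, so its p-value is not independent of that filter. The leukocyte gene Ptprc had means of 10.2 and 0.129 CPM in these groups, and the part of leukocytes in the Il10ra difference was not tested.

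Of the annexins, 3 of 10 were DEGs under IgG, a share near the 28.0% of all genes, and 5 of 10 under anti-PD1, against 21.4%. Besides Anxa1, Anxa3 rose by 0.77 (adjusted p = 0.0163) and 0.91 (adjusted p = 0.00826), and Anxa6 fell by 1.29 under anti-PD1 (adjusted p = 0.00563) from 4.52 to 1.83 CPM. Of 36 other EF-hand genes, 11 (30.6%) were DEGs under IgG and 6 (16.7%) under anti-PD1, against 28.0% and 21.4% of all genes. Sparc, a secreted matrix protein, fell by 1.04 (adjusted p = 0.00144) and 1.18 (adjusted p = 0.000734), and Ncs1, a neuronal calcium sensor, rose by 0.77 (adjusted p = 0.00139) and 0.81 (adjusted p = 0.00112). Efhd2, an actin-binding protein, rose by 0.74 (adjusted p = 0.00269) and 0.57 (adjusted p = 0.013). Necab2 rose from 0.118 to 1.74 CPM under IgG (adjusted p = 0.00089) and from 0.387 to 1.78 CPM under anti-PD1 (adjusted p = 0.00879), and Necab3 fell by 1.87 under IgG (adjusted p = 0.00108).

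In WT anti-PD1 versus WT IgG, 1 of the 84 genes passed edgeR's test, Egfr, the epidermal growth factor receptor, which rose from 6.55 to 14.5 CPM (log2 fold change 1.15, SE 0.20, adjusted p = 0.0312). In A159V anti-PD1 it was 7.63 CPM, lower than in WT anti-PD1 by 0.93 (adjusted p = 0.00642). Ahnak had a log2 fold change of 1.30 in WT anti-PD1 versus WT IgG (adjusted p = 0.0901). In A159V anti-PD1 versus A159V IgG and for the interaction, 0 of 84 passed by edgeR, with 4 and 14 at an unadjusted p under 0.05, against 3.63% and 17.6% of all genes. DESeq2 called 0 and 4, against 0.0139% and 2.06%.

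S100 genes are expressed by several cell types, and in bulk samples fewer cells of a type and less RNA per cell cannot be told apart, so marker lists are given beside them. The summed CPM of 10 fibroblast markers was 565 to 1062 in WT IgG, 781 to 1653 in WT anti-PD1, 240.1 to 303 in A159V IgG and 236 to 320.1 in A159V anti-PD1. Of the 10, 8 were DEGs under IgG and 6 under anti-PD1, all lower in A159V, the direction of S100a4, against 12.4% and 10.2% of all genes that were lower DEGs. Dcn, which encodes the matrix protein decorin, had means of 245 and 96.4 CPM under IgG, while Pdgfra, a fibroblast receptor, had 45.9 and 70.5 CPM. The part of such cells in the S100 differences was not tested.

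The summed CPM of 17 leukocyte markers was 38.5 to 42.3 in WT IgG, 65.9 to 95.4 in WT anti-PD1, 51.2 to 67.2 in A159V IgG and 52.6 to 57.1 in A159V anti-PD1, with Cd68 the largest term. Ptprc, which encodes the pan-leukocyte protein CD45, had means of 1.31, 10.2, 0.103 and 0.129 CPM in these groups, and of 11 leukocyte markers tested 4 rose in WT under anti-PD1, against 0.628% of all genes. Between genotypes, 2 were higher and 2 lower in A159V under IgG. Under anti-PD1, 7 were lower and 0 higher, where 10.2% of all genes were lower DEGs. S100a4 and S100a10 were lower in A159V under both antibodies. In WT anti-PD1 versus WT IgG their log2 fold changes were −0.52 (SE 0.23) and −0.43 (SE 0.22), and neither passed the test. The part of leukocytes in the S100 values was not tested. Of 6 neutrophil markers the sum was at most 2.61 CPM, with S100a9 at most 0.737 CPM and Ly6g at 0 counts in all samples. Of 8 epithelial markers the sum was at most 5.90 CPM, with Epcam at most 0.109 CPM, so the epithelial markers of an adenocarcinoma were near absent. Of 7 endothelial markers the sum was 5.15 to 15.2 CPM, and both of those tested were lower in A159V under anti-PD1 and neither passed under IgG.

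The genes whose pattern over the 12 samples was most like that of S100a4 were found by the root mean square difference of log2 CPM, each gene centered on its own mean. They were Sod3, the extracellular superoxide dismutase (difference 0.34), Rnase2a (0.34), Ang2 (0.35), Clec1b (0.36) and Pla2g7, a secreted phospholipase (0.37). Sod3 had 8.42 ± 2.00 and 1.26 ± 0.314 CPM in WT IgG and A159V IgG (SD, n = 3), and Pla2g7 had 29.0 ± 2.56 and 4.10 ± 0.962 CPM. The study itself named Pla2g7 beside S100a4 among its top lower genes. S100a4 was known to be low in A159V, so lower values of the genes most like it are no added evidence. Rnase2a, Ang2 and Clec1b had means of 0.934, 1.01 and 0.711 CPM in WT IgG and at most 0.0674 CPM in A159V IgG, below the floor of 3 counts, so their likeness to S100a4 rests on values that were not detected in A159V cells. Within the family S100a10 was the nearest to S100a4 (0.97), followed by S100a13 (1.12) and S100a6 (1.14). No gene of the 5 lies on chromosome 3.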

How the data were processed

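Polyadenylated RNA of tumor cells was sequenced by the authors with paired reads of 100 bp, aligned to mm10 with STAR, converted with Samtools and counted per gene with summarizeOverlaps. The deposited values are raw counts, without normalization, and the authors tested them with DESeq2. Tool versions, annotation, counting mode and strand setting are not given in the sources used here, so genes that share exons or sequence are uncertain. The group of each sample came from its label. Of 33219 features, 33217 were Ensembl identifiers, 31980 matched a GENCODE M21 symbol, and 2 reporter features had 0 counts. Total counts per sample had a median of 18794752.

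The count analysis used edgeR 4.0.16 (R 4.3.3). filterByExpr kept 14340 genes, libraries were scaled by TMM, and all 12 samples entered 1 quasi-likelihood fit with a mean for each of the 4 groups. CPM were computed from the deposited counts and these factors, and log2 CPM used a prior count of 2. Benjamini-Hochberg adjustment ran over all tested genes, and DEGs passed 0.05 on the adjusted p and 0.3 on the size of the log2 fold change. Alternatives were RLE and upper-quartile scaling, no filter, at least 10 counts in every sample, DESeq2 1.42.0, voom in limma 3.58.1, 2 groups per fit, a block for replicate numbers, leaving out each sample, windows of 0.5 and 2 Mb and, added after the data were seen, removal of each sample's exon-length trend. The fits were tested on simulated data.

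The members and gene lists were chosen with earlier results of these data known. Named genes are all S100 genes, the nearest neighbors of S100a4 and those that were DEGs, up to 12 list genes per comparison by p, fixed partners of single members, and the 5 genes most like S100a4. Plaur, Pbxip1 and the marker genes with values were named besides, after their values were seen. Motifs were searched with Python 3.11.15. Nothing states that the mice of a group were independent of cage or day, so p-values measure the spread between these samples.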

Additional observations from a re-analysis of the deposited data

How the results depend on the processing

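In both genotype comparisons every DEG among the members kept its direction in all alternatives run, and S100a4 and S100a10 were lower in each. Upper-quartile scaling moved the median of all genes by −0.12 under IgG and changed no direction of a member DEG. Of the members, 4 were DEGs under IgG, 2 with only 2 groups in the fit, 7 with the replicate block and 2 to 6 with 1 sample left out (2 without WT IgG replicate 1 or 2 or A159V IgG replicate 1 or 2, and 6 without WT IgG replicate 4). Under anti-PD1 the 2 became 1 to 2 with 1 sample left out, the 1 without any of WT anti-PD1 replicates 1, 2 and 3 or A159V anti-PD1 replicates 2 and 3. In WT anti-PD1 versus WT IgG the 0 became 1 without a filter, 3 with DESeq2, 7 with the replicate block (32.4% of all genes) and 0 to 7 with 1 sample left out (7 without WT IgG replicate 4). For the interaction the 0 became 5 with the replicate block and 0 to 2 with 1 sample left out (2 without WT IgG replicate 4). The list genes called went from 29 to 10 with 2 groups in the fit and 19 to 29 with 1 sample left out under IgG (19 without A159V IgG replicate 2), and from 28 to 16 with at least 10 counts in every sample and 11 to 18 with any 1 of the 6 samples left out under anti-PD1. In WT anti-PD1 versus WT IgG the 1 list gene became 4 without a filter, 7 with DESeq2, 2 with voom, 0 with 2 groups in the fit, 0 with the exon-length trend removed, 22 with the replicate block and 0 to 14 with 1 sample left out (14 without WT IgG replicate 4, 0 without any other). For the interaction the 0 became 4 with DESeq2, 14 with the replicate block and 0 to 5 with 1 sample left out (5 without WT IgG replicate 4). Replicate number 4 occurs only in WT IgG and number 5 only in A159V IgG. Each of these samples is therefore alone in its block, and the block fit in effect leaves it out of the group differences. The replicate block is thus not separate from leaving out WT IgG replicate 4. The cause of the shifts was not tested otherwise. S100a4 minus the median of its neighbors was −2.32 under IgG with the exon-length trend removed, −2.71 and −2.87 for 0.5 and 2 Mb windows, and −3.01 to −2.53 with 1 sample left out. Samples with the same replicate number come from different mice, and the labels do not say what a shared number stands for. The correlation of same-numbered samples' deviations from their group means ran from −0.18 to 0.20 over 13 pairs. Over 41 pairs with different numbers it ran from −0.22 to 0.23, so a pairing by number was not seen. Depth limits S100a5, S100a14 and S100a8, which had few counts.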
